A study of Mus musculus with 21 samples.

Results

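Mouse embryonic stem cells (mESCs) leave the naive pluripotent state through a formative state before they become primed, and 8 genes that mark or accompany the later states were followed here: Fgf5, Otx2, Pou3f1, Foxd3, Zic2, Zic5, Sall2 and Lin28b. They were chosen by symbol, as 8 of the 23412 gene symbols with counts, and all 8 were among the 14963 genes tested. RNA-seq of poly-A RNA was available from 21 libraries, 3 for each of 7 conditions of the male v6.5 mESC line, grown in medium with serum. The study asked what the cohesin subunits PDS5A and PDS5B, and the subunits STAG1 and STAG2, contribute to gene expression.

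The 7 conditions combined a genotype with an siRNA. Wild-type (WT) mESCs and mESCs lacking Pds5a (Pds5a-/-) were transfected with siGLO, the transfection control, or with an siRNA against Pds5b (siPds5b). Pds5b-/- mESCs received siGLO only. Pds5a-/- mESCs were also transfected with siRNA against Stag1 (siStag1) or Stag2 (siStag2). Every culture was thus transfected, at 50 nM siRNA, and RNA was taken after 48 h. Each knockout genotype was represented by a single CRISPR/Cas9 clone, so the 3 libraries of a knockout condition are replicates of 1 clone and clone and genotype cannot be told apart. WT mESCs treated with siStag1 or siStag2, and Pds5b-/- mESCs with any siRNA but siGLO, are not analysed here.

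In naive mESCs the transcription factors NANOG, ESRRB, KLF4 and PRDM14 hold the genes of later stages in check. When the naive network is released, cells pass through the formative state, in which FGF5 and OTX2 appear and the cells become able to respond to signals for germ layers and germ cells, and then reach the primed state of the epiblast at implantation and after. OTX2 occupies enhancers of the incoming programme together with POU5F1. In these libraries the naive genes were high: in WT siGLO mESCs Nanog averaged 10450, Esrrb 10700 and Zfp42 9671 normalized counts. Normalized counts are read counts scaled to a common library size of 19816922 reads, and every level below is on this scale unless stated otherwise.

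The libraries held between 17311090 and 23989198 counted reads, with a median of 19628146. Pds5b averaged 2219 normalized counts in WT siGLO, 776.2 in WT siPds5b, 275.8 in Pds5b-/- siGLO and 903.3 in Pds5a-/- siPds5b mESCs, so some Pds5b transcript remained in each depletion. Pds5a averaged 5059 in WT siGLO and 4271 in Pds5a-/- siGLO mESCs; a gene-level count over a transcript with a small edit does not check that knockout. Stag1 averaged 574.5 after siStag1 and Stag2 averaged 875.2 after siStag2, against 2428 and 3256 in Pds5a-/- siGLO mESCs. Replicate 1 of both WT conditions stood apart from replicates 2 and 3 in primitive streak genes. T, the Brachyury gene, had 74.76 normalized counts in WT siGLO replicate 1, against 378.5 and 555.7 in replicates 2 and 3, and 63.17 in WT siPds5b replicate 1, against 408.5 and 492.5. T was also lowest in replicate 1 at lower levels in Pds5a-/- siGLO (38.6, against 113.2 and 101.2) and Pds5b-/- siGLO mESCs (20.06, against 74.77 and 68.92). The same held in Pds5a-/- mESCs after siPds5b (55.94, against 110.9 and 87.71) and siStag1 (34.88, against 66.67 and 57.02). After siStag2 it did not (111.3, against 130.7 and 73.58). Fgf5, Otx2, Pou3f1, Zic2, Sall2 and Lin28b also had their lowest count of each WT condition in replicate 1. Comparisons with WT siGLO are therefore also given without its replicate 1. Those fits keep replicate 1 of the other condition. The part of the streak genes in the results was not tested.

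The promoters of 6 of the 8 genes were matched in RefSeq by symbol, on build GRCm38, which is the authors' mm10; Pou3f1 and Zic2 had no entry. The 250 bases before the transcription start are printed for 3 genes: Fgf5, which had the largest difference of the 8, and Foxd3 and Lin28b, which both held a CACGTG. Motif matches stand in capitals.
Fgf5, chr5:98253934-98254183, plus strand: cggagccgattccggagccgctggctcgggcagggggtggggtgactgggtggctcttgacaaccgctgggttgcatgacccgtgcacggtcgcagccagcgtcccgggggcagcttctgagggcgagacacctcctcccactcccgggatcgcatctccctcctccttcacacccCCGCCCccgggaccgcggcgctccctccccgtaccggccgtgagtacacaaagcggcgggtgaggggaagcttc
Foxd3, chr4:99656049-99656298, plus strand: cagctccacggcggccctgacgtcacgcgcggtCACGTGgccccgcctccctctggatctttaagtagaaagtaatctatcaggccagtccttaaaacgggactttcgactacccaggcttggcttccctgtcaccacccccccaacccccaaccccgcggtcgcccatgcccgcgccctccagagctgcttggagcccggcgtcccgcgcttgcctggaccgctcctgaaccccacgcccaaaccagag
Lin28b, chr10:45470202-45470451, minus strand: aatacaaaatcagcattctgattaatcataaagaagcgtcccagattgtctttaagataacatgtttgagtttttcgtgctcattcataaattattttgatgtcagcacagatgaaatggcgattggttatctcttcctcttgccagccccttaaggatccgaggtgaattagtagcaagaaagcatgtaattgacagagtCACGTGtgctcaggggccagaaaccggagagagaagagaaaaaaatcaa

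The Fgf5 window was 70.8% G and C, the Foxd3 window 65.6% and the Lin28b window 39.2%. The Fgf5 window held 1 GC box, GGGCGG, on the reverse strand, a motif present on either strand in 32.7% of the 32851 promoter windows of the same length. The E-box CACGTG, which reads the same on both strands, was present in 6.02% of them. TATAAA (12.4% of promoters), TAATCC, the core bound by OTX proteins (6.25%), and the octamer ATGCAAAT (1.6%) were searched on both strands as well and were not in these 3 windows. A match in letters is a description and not a binding site. The Lin28b window lies inside the annotated gene body, whose start lies further upstream.

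Across the single knockouts the 8 genes did not move as a group. In Pds5a-/- siGLO against WT siGLO mESCs, 2 of the 8 genes were differentially expressed (adjusted p under 0.01), both lower: Fgf5 and Sall2. That compares with 17.8% of all genes tested. In Pds5b-/- siGLO mESCs, 1 gene, Lin28b, was higher and 1 gene, Fgf5, was lower, against 18.2% of all genes. The median log2 fold change of the 8 genes was −0.14 in Pds5a-/- and −0.44 in Pds5b-/- mESCs, beside 0.0021 and −0.0029 over all genes tested. Fgf5 was therefore the 1 gene of the 8 called against WT in both knockouts. Both comparisons share the WT siGLO libraries.

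Fgf5, a secreted fibroblast growth factor and the classical marker of the epiblast that has left the naive state (chr5:98254184-98277030, plus strand), had the largest differences. Its normalized counts in WT siGLO mESCs were 127.2, 263.6 and 315.9 in replicates 1, 2 and 3. In Pds5a-/- siGLO mESCs they were 37.58, 26.19 and 17.35, and in Pds5b-/- siGLO mESCs 13.72, 30.91 and 17.47. Every knockout library lay below every WT library. Fgf5 fell by 3.12 on the log2 scale in Pds5a-/- mESCs, an 8.70-fold difference (SE 0.431, adjusted p = 2.91e-05). It fell by 3.49 in Pds5b-/- mESCs, 11.3-fold (SE 0.448, adjusted p = 1.37e-05). In these bulk libraries, fewer Fgf5-expressing cells and less Fgf5 RNA per cell cannot be told apart. Without WT siGLO replicate 1 the log2 differences were −3.43 (adjusted p = 4.4e-06) and −3.78 (2e-06).

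Sall2, a zinc finger transcription factor of the spalt family expressed in mESCs and neural tissue (chr14:52311172-52328762, minus strand), was lower in Pds5a-/- mESCs. Its counts were 397.9, 709.7 and 709.5 in WT siGLO and 350.4, 317.1 and 275.7 in Pds5a-/- siGLO mESCs. The groups did not overlap, although WT replicate 1 lay much nearer to the knockout libraries than the other WT libraries did. Sall2 fell by 0.94 on the log2 scale (SE 0.189, adjusted p = 0.00085), and by 1.18 without WT replicate 1 (adjusted p = 5.5e-06). A fit of these conditions alone gave an adjusted p of 0.014. In Pds5b-/- siGLO mESCs its counts of 502.5, 488.5 and 513.5 lay within the WT range (log2 difference −0.27, SE 0.184, adjusted p = 0.277).

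Lin28b encodes an RNA-binding protein that blocks the maturation of let-7 microRNAs (chr10:45376620-45486395, minus strand). Its counts were 1386, 1452 and 1565 in WT siGLO, 1331, 1101 and 1127 in Pds5a-/- siGLO and 1969, 1816 and 1777 in Pds5b-/- siGLO mESCs. The Pds5b-/- libraries all lay above WT and the Pds5a-/- libraries all lay below it. Lin28b rose by 0.34 on the log2 scale in Pds5b-/- mESCs (SE 0.0916, adjusted p = 0.00735), a call that was lost without WT replicate 1 (0.31, adjusted p = 0.0321) and without 3 other single libraries. The difference of −0.31 in Pds5a-/- mESCs (SE 0.0924, adjusted p = 0.0142) missed the threshold. It was called by DESeq2 (−0.31, adjusted p = 0.00892) and without Pds5a-/- siGLO replicate 1 (−0.41, adjusted p = 0.00309).

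Foxd3, a forkhead transcription factor needed for the epiblast and for the neural crest (chr4:99656299-99658622, plus strand), was lower in every knockout library than in every WT library but was not called in the fit of all conditions. WT siGLO mESCs had 652.2, 702.9 and 672.3 normalized counts, Pds5a-/- siGLO mESCs 512.9, 320.8 and 259.3, and Pds5b-/- siGLO mESCs 432.8, 273.2 and 255.3. The spread was narrow in WT and wide in both knockouts, where replicate 1 was highest and replicate 3 lowest. Replicate 1 had the highest Foxd3 count in 6 of the 7 conditions and replicate 3 the lowest in 6 of 7. The log2 differences were −0.89 (SE 0.329, adjusted p = 0.0547) and −1.08 (SE 0.332, adjusted p = 0.0224). In a fit of these conditions alone the Pds5b-/- difference of −1.08 was called (adjusted p = 0.000585).

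Otx2, a homeobox factor of the formative programme (chr14:48657677-48673819, minus strand), and Pou3f1, the POU factor also known as OCT6 (chr4:124656807-124660655, plus strand), had means on opposite sides of WT in the knockouts. Otx2 had 316.2, 470.9 and 398.6 counts in WT siGLO, 686.6, 454.5 and 395.2 in Pds5a-/- siGLO and 294.5, 252.2 and 258.2 in Pds5b-/- siGLO mESCs. Pou3f1 had 619.6, 941.7 and 912.9 in WT siGLO, 1329, 1099 and 959 in Pds5a-/- siGLO and 613.3, 555.3 and 587.3 in Pds5b-/- siGLO mESCs. None of these differences from WT passed the threshold. For Pou3f1 they were 0.45 (SE 0.173, adjusted p = 0.0577) and −0.49 (SE 0.177, adjusted p = 0.0418), and for Otx2 0.38 (SE 0.2, adjusted p = 0.176) and −0.55 (SE 0.207, adjusted p = 0.0485). A fit of these conditions alone called Otx2 in Pds5b-/- mESCs (−0.55, adjusted p = 0.00748). Without WT replicate 1, Pou3f1 was called lower in Pds5b-/- mESCs (−0.65, adjusted p = 0.008). The annotation places an antisense transcript, Gm2164, over 330 exon bases of Pou3f1, and the lincRNA Otx2os1, on the opposite strand, over 154 exon bases of Otx2. Otx2os1 itself had 0 to 11 reads per library, and whether counting used strand is not given in the sources used here.

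The zinc finger factors Zic2 (chr14:122475435-122479852, plus strand) and Zic5 (chr14:122456795-122465677, minus strand), which act in neural and epiblast development, are divergent neighbours with 9758 bases between them. Zic2 had 808.6, 985.7 and 1023 counts in WT siGLO, 1111, 911 and 842.4 in Pds5a-/- siGLO and 820.2, 745.7 and 590.2 in Pds5b-/- siGLO mESCs. Zic5 had 312.8, 434.8 and 332.4 in WT siGLO, 472.3, 355.4 and 332.5 in Pds5a-/- siGLO and 341.0, 402.8 and 350.4 in Pds5b-/- siGLO mESCs. The knockout and WT libraries overlapped for both genes. The largest of these 4 differences was that of Zic2 in Pds5b-/- mESCs, at −0.39 (SE 0.131, adjusted p = 0.0284). Zic5 was not called in any of the 11 comparisons.

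**Figure D1:**
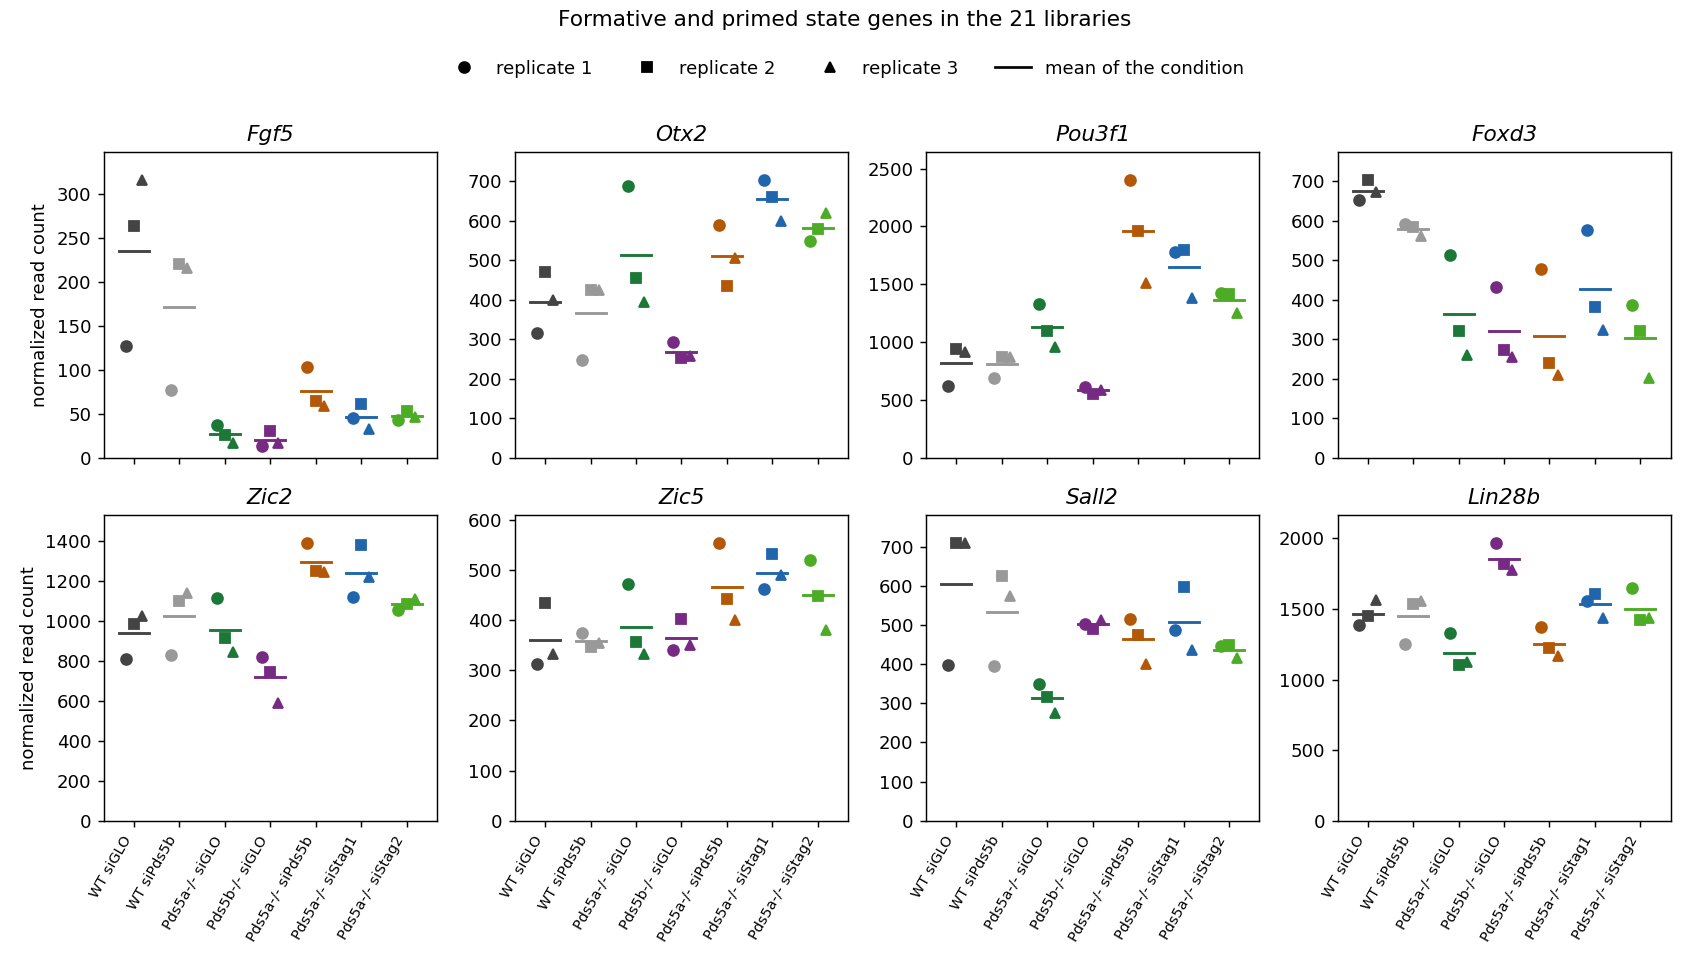
Normalized counts of the 8 genes in the 21 libraries, 1 panel a gene, with 1 point a library (circle, square and triangle for replicates 1, 2 and 3) and a line at the mean of each condition. Fgf5 lies between 13.72 and 37.58 in the single knockouts, below the WT siGLO range of 127.2 to 315.9, while Pou3f1 reaches its highest values, 1514 to 2401, in Pds5a-/- siPds5b mESCs.

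The difference between the knockouts was tested directly. In Pds5b-/- against Pds5a-/- siGLO mESCs, 1 of the 8 genes was higher and 2 were lower, against 19.2% of all genes tested. Otx2 was lower in Pds5b-/- mESCs by 0.93 on the log2 scale (SE 0.206, adjusted p = 0.00208). Pou3f1 was lower by 0.95 (SE 0.176, adjusted p = 0.000573), and Lin28b was higher by 0.64 (SE 0.0923, adjusted p = 1.21e-05). For all 3 genes no Pds5b-/- library overlapped a Pds5a-/- library. The Otx2 call was lost without Pds5a-/- replicate 1 (−0.64, adjusted p = 0.0121) and without Pds5b-/- replicate 2 (0.0126) or 3 (0.0118). Sall2 was 0.67 higher (SE 0.19, adjusted p = 0.0105) and Zic2 was 0.41 lower (SE 0.131, adjusted p = 0.0198), neither past the threshold. Sall2 passed it in 6 of 7 other settings that kept all libraries and the threshold (adjusted p from 0.000912 to 0.00926 in these 6). Fgf5, at −0.37 (SE 0.53, adjusted p = 0.625), and Foxd3, at −0.19 (SE 0.338, adjusted p = 0.713), did not separate the knockouts at this precision. With 1 clone each, the knockout comparison is also a comparison of clones.

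Depletion of Pds5b by siRNA in WT mESCs gave no call. None of the 8 genes was differentially expressed in WT siPds5b against WT siGLO mESCs in edgeR's test. In that test 0 of the 8, and 4.22% of all genes, were at an unadjusted p under 0.05. The edgeR fit called 0.00668% of all genes, a single gene (0.0201% in a fit that blocked on replicate number). DESeq2 called 0 of the 8 genes and 0.0199% of all genes. Fgf5 had 77.43, 221.0 and 215.8 counts in WT siPds5b mESCs. These overlapped the WT siGLO libraries, and both conditions had their lowest value in replicate 1 (log2 difference −0.46, SE 0.362). Foxd3, with 593.0, 583.8 and 561.3, was below all WT siGLO libraries by a narrow margin (−0.22, SE 0.322). Pou3f1 differed by −0.018 (SE 0.175), Lin28b by −0.02 (SE 0.0922) and Zic5 by 0.00023 (SE 0.147).

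The same siRNA in Pds5a-/- mESCs, which deplete both PDS5 proteins, gave 1 call of 8, Pou3f1, higher, against 7.59% of all genes tested. Pou3f1 had 2401, 1957 and 1514 normalized counts in Pds5a-/- siPds5b mESCs, all above the Pds5a-/- siGLO libraries. It rose by 0.80 on the log2 scale, 1.74-fold (SE 0.17, adjusted p = 0.00361). The call was lost without Pds5a-/- siGLO replicate 2 or 3 or Pds5a-/- siPds5b replicate 1 or 2 (adjusted p from 0.0133 to 0.0208) and in a fit of these conditions alone (0.0333).

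Fgf5 had 103.9, 64.27 and 58.8 counts in Pds5a-/- siPds5b mESCs, against 37.58, 26.19 and 17.35 in Pds5a-/- siGLO mESCs. All libraries of the dual depletion lay above the single knockout, a log2 difference of 1.49 (SE 0.452, adjusted p = 0.0307) that missed the threshold in edgeR and passed it in DESeq2 (0.00285). Sall2 had 515.0, 474.8 and 399.7, also without overlap (0.56, SE 0.19, adjusted p = 0.0506). Zic2 had 1389, 1248 and 1243, above all 3 single-knockout libraries (0.44, SE 0.128, adjusted p = 0.0229). Otx2 (588.7, 435.4 and 505.3), Foxd3 (478.6, 239.4 and 209.3), Zic5 (554.0, 442.6 and 399.7) and Lin28b (1372, 1227 and 1165) overlapped the Pds5a-/- siGLO libraries. The median log2 fold change of the 8 genes was 0.35, beside −0.00038 over all genes.

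Against WT siGLO, the dual depletion gave 2 genes higher and 1 lower, where 32.0% of all genes were called. Pou3f1 rose by 1.25, 2.38-fold (SE 0.172, adjusted p = 1.33e-05; 1.08 without WT replicate 1), and every dual-depleted library was above every WT library. Zic2 rose by 0.46, 1.38-fold (SE 0.128, adjusted p = 0.00561), with no overlap, but the call was lost in 5 of 6 fits that left out 1 of these libraries, among them WT replicate 1 (0.36, adjusted p = 0.042). Fgf5 fell by 1.63, 3.09-fold (SE 0.382, adjusted p = 0.00195). The call was lost without WT replicate 3 (0.0125) or dual-depletion replicate 2 (0.0119) or 3 (0.0139). Foxd3 differed by −1.12 (SE 0.332, adjusted p = 0.0123). It was called by DESeq2 (−1.12, adjusted p = 0.00436) and without dual-depletion replicate 1 (−1.60, 0.00105). Zic5 differed by 0.38 (SE 0.146, adjusted p = 0.0379) and Lin28b by −0.23 (SE 0.0922, adjusted p = 0.0493). Sall2 differed by −0.38 (SE 0.184, adjusted p = 0.0977), and by −0.62 without WT replicate 1, where it was called (adjusted p = 0.00219).

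Whether siPds5b acted differently in Pds5a-/- than in WT mESCs was tested as an interaction, which called 1.48% of all genes in edgeR and 2.82% in DESeq2. None of the 8 genes passed in edgeR and 0 by DESeq2, with 3 at an unadjusted p under 0.05, as were 17.3% of all genes. The differences of the siPds5b effect were 1.96 for Fgf5 (SE 0.58, adjusted p = 0.0701), 0.81 for Pou3f1 (SE 0.244, adjusted p = 0.0731) and 0.75 for Sall2 (SE 0.264, adjusted p = 0.13). Without WT siGLO replicate 1, Sall2 passed (0.98, adjusted p = 0.00654), while Fgf5 (2.26, adjusted p = 0.0168) and Pou3f1 (0.98, adjusted p = 0.0143) did not.

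**Figure D2:**
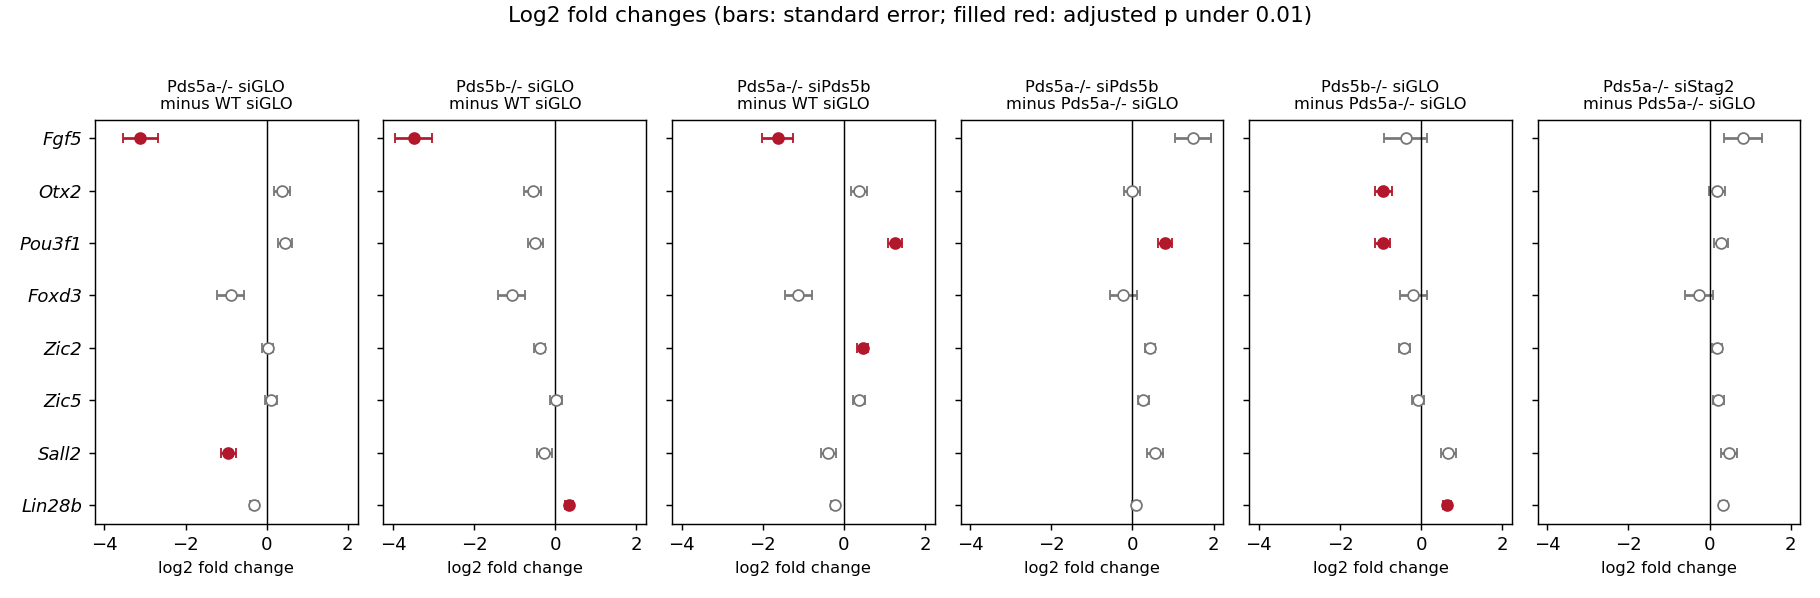
Log2 fold changes of the 8 genes in 6 of the comparisons, 1 panel each, with bars of 1 SE and filled points for adjusted p under 0.01. Fgf5 lies at −3.12 and −3.49 in the single knockouts and at −1.63 in the dual depletion, and Pou3f1 is the only gene of the 8 at more than 1 in the dual depletion (1.25).

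The STAG siRNAs were tested in Pds5a-/- mESCs only. The comparisons of siPds5b, siStag1 and siStag2 with siGLO there share the Pds5a-/- siGLO libraries. Of the 7 conditions, that reference had the lowest means of Sall2 (314.4) and Lin28b (1186). After siStag1 none of the 8 genes was called by edgeR or DESeq2. Of all genes, edgeR called 0.0936% (0.321% with the replicate block) and DESeq2 0.56%. At an unadjusted p under 0.05 were 5 of the 8, and 10.7% of all genes. Pou3f1 had 1781, 1797 and 1383 counts (log2 difference 0.55, SE 0.17, adjusted p = 0.193). Sall2 had 488.3, 595.6 and 436.5 (0.69, SE 0.19, adjusted p = 0.134), and Lin28b had 1559, 1603 and 1437 (0.37, SE 0.0925, adjusted p = 0.0761). For these 3 genes, and for Zic2 with 1120, 1379 and 1217, every siStag1 library lay above every Pds5a-/- siGLO library. Here and in the other comparisons, the share of all genes separated in this way was not counted, so the separation is only a description. The median log2 fold change of the 8 genes was 0.37, beside −0.0065 over all genes. Fgf5 (45.54, 61.12 and 32.44), Otx2 (702.5, 660.1 and 599.7), Foxd3 (575.5, 382.3 and 324.4) and Zic5 (462.2, 532.3 and 489.6) overlapped the siGLO libraries.

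After siStag2 none of the 8 genes was called by edgeR or DESeq2. Of all genes, edgeR called 2.24% (4.52% with the block) and DESeq2 5.89%. At an unadjusted p under 0.05 were 2 of the 8, a share near the 25.3% of all genes. Those 2 were Lin28b, with 1646, 1422 and 1437 counts (0.34, SE 0.0926, adjusted p = 0.0243), and Sall2, with 447.0, 448.3 and 415.9 (0.48, SE 0.191, adjusted p = 0.128). Both were above all Pds5a-/- siGLO libraries. Fgf5 was too, at 42.94, 53.88 and 47.01 (0.83, SE 0.475, adjusted p = 0.293). Otx2 (547.5, 579.0 and 618.3), Pou3f1 (1427, 1415 and 1255), Foxd3 (387.5, 322.2 and 201.3), Zic2 (1052, 1083 and 1108) and Zic5 (520.2, 448.3 and 380.2) overlapped the siGLO libraries.

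Between siStag2 and siStag1 none of the 8 genes was called in edgeR or DESeq2, which called 0.394% and 2.13% of all genes. At an unadjusted p under 0.05 in edgeR were 0 of the 8 and 19.9% of all genes. The largest differences were −0.49 for Foxd3 (SE 0.338, adjusted p = 0.441) and −0.28 for Pou3f1 (SE 0.169, adjusted p = 0.383). Between siStag2 and siPds5b, 3.96% of all genes were called by edgeR and 5.77% by DESeq2, and none of the 8 by either tool. At an unadjusted p under 0.05 were 2 of the 8, near the 23.8% of all genes. Pou3f1 was 0.52 lower after siStag2 (SE 0.169, adjusted p = 0.0618) and Lin28b 0.26 higher (SE 0.0924, adjusted p = 0.0791), in both cases without overlap of the libraries. The libraries did not overlap for Fgf5 (−0.67, SE 0.424, adjusted p = 0.367) and Zic2 (−0.26, SE 0.128, adjusted p = 0.222) either.

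The order of the conditions differed from gene to gene. Fgf5 spanned 11.4-fold from the highest condition mean, 235.6 ± 97.4 (SD, n = 3) in WT siGLO, to the lowest, 20.7 ± 9.04 in Pds5b-/- siGLO mESCs. Its 7 conditions overlapped their neighbours in this order at every step but 1, between the dual depletion (75.65 ± 24.6) and siStag2 (47.95 ± 5.53). Pou3f1 spanned 3.34-fold, from 1957 ± 443 in the dual depletion to 585.3 ± 29.0 in Pds5b-/- siGLO mESCs. It had gaps between Pds5a-/- siGLO (1129 ± 187) and WT siGLO (824.7 ± 178) and again between WT siPds5b and Pds5b-/- siGLO. Zic5 spanned only 1.38-fold, and all of its neighbouring conditions overlapped. Lin28b had a single gap, below Pds5b-/- siGLO mESCs (1854 ± 101), and Sall2 a single gap, above Pds5a-/- siGLO mESCs (314.4 ± 37.5). Foxd3 had its single gap between WT siGLO (675.8 ± 25.5) and WT siPds5b (579.4 ± 16.3), and Zic2 between siStag1 and siStag2. Otx2 had none. Per kilobase of exon, WT siGLO levels ran from 326.1 normalized counts for Zic2, 290.8 for Foxd3 and 214.3 for Pou3f1, through 161.9 for Lin28b and 111.5 for Sall2, to 94.2 for Fgf5, 93.63 for Otx2 and 73.63 for Zic5.

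Pou3f1, Otx2 and Zic2 varied together over the 21 libraries. Pearson's r of log2 CPM, the log2 of counts scaled by library size, was 0.866 between Pou3f1 and Zic2 (rho 0.845), 0.857 between Otx2 and Pou3f1 (rho 0.803) and 0.819 between Otx2 and Zic2 (rho 0.749). After the condition means were removed these were 0.631, 0.725 and 0.78. For Zic5, r was 0.769 with Pou3f1, 0.672 with Otx2 and 0.64 with Zic2, and within conditions 0.625, 0.396 and 0.38. For Fgf5, r was 0.641 with Foxd3 and 0.64 with Sall2, and within conditions 0.261 and 0.847. It was 0.059 with Pou3f1, 0.0943 with Otx2 and 0.367 with Zic2 over all libraries, and 0.755, 0.744 and 0.726 within conditions. Pou3f1 and Lin28b had an r of −0.371 over all libraries and of 0.773 within conditions. The libraries share conditions and normalization, and these values are descriptions.

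The tested genes whose log2 CPM was most like a given gene's were taken as the first 3 by r over the 21 libraries. For Fgf5 they were Ccny (0.923), Car14 (0.918) and Dclk1 (0.896), and for Otx2 Foxi3 (0.862), Pou3f1 (0.857) and Ube2e2 (0.851). Usf1 (0.922), Trim12a (0.913) and Metrnl (0.911) were most like Pou3f1, and Cstf2t (0.885), Gm4636 (0.872) and Zmym1 (0.872) most like Foxd3. Lpar4 (0.869), Efnb2 (0.848) and Tmem47 (0.835) were most like Sall2, and Ibtk (0.911), Creb1 (0.91) and Ipo8 (0.894) most like Lin28b. C77370 (0.85), Plekha1 (0.82) and Dscam (0.816) were most like Zic5. The gene most like Zic2 was its neighbour 2610035F20Rik (0.902, and 0.752 within conditions), followed by Pou3f1 (0.866) and Parp14 (0.865).

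2610035F20Rik lies between Zic5 and Zic2, 236 bases from Zic2. It fell by 0.82 in Pds5b-/- siGLO mESCs (SE 0.219, adjusted p = 0.00639), from a mean of 102.6 to 57.9 normalized counts, where Zic2 was at −0.39 without a call. Other genes within 500 kb of the 8 were examined in all comparisons. Of all genes tested, 48.8% were called in at least 1 of the 11 comparisons. Around Fgf5, where the 8 genes had their largest differences, 0 of 3 tested neighbours were called in any comparison. Around Pou3f1, 4 of 16 were called in at least 1 comparison: Rspo1, a WNT agonist, rose by 1.07 in Pds5a-/- siGLO and by 1.57 in the dual depletion against WT, Zc3h12a, an RNase, fell by 0.98 in both knockouts, Cdca8 rose by 0.21 in Pds5a-/- mESCs, and Sf3a3 fell by 0.25 in the dual depletion. Around Foxd3, 4 of 6 were called, among them Ror1, a WNT co-receptor, which rose by 1.74 in Pds5a-/- and 2.33 in the dual depletion. Around Otx2, 3 of 5 were called: Peli2, Exoc5 and Naa30. Around Zic2, 3 of 10 were called: Ubac2, 2610035F20Rik and Pcca. Around Zic5, 4 of 10 were: these 3 and Zic2. Around Sall2, 2 of 12 were called: Zfp219 and Chd8. Around Lin28b, 3 of 4 were called: Prep, Popdc3 and Bves, the last 4141 bases away and 1.12 higher in the dual depletion (SE 0.312, adjusted p = 0.00528).

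A list of 14 other genes of the formative and primed states was read beside the 8. In Pds5a-/- siGLO mESCs 4 were higher and 2 lower, in Pds5b-/- siGLO mESCs 6 were higher and 1 lower, and in the dual depletion 5 were higher and 1 lower against WT. The de novo DNA methyltransferases were among those higher. Dnmt3a rose by 1.06, 1.18 and 1.68 in the 3 comparisons, and Dnmt3b by 0.94, 0.60 and 1.08. Hes6, a transcription cofactor of the HES family, rose by 1.35, 0.96 and 1.99. Pim2, a kinase, fell by 1.18 in Pds5a-/- and by 2.43 in Pds5b-/- mESCs. After siPds5b in Pds5a-/- mESCs 3 of the 14 were higher and 0 lower: Sox3 by 1.39, Lef1 by 1.33 and Hes6 by 0.64. The list's median log2 fold changes were 0.0052, 0.49 and 0.43 against WT and 0.35 for siPds5b in Pds5a-/- mESCs. These are counts beside the backgrounds above, and no test set the list against other genes.

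Genes of the naive state mostly fell in the same libraries. Of 14, 9 fell and 1 rose in Pds5a-/- siGLO, 10 fell and 1 rose in Pds5b-/- siGLO, and 13 fell and 1 rose in dual-depleted mESCs against WT. The 1 that rose was Dppa3 in each case (2.61, 1.45 and 2.46), a gene of naive cells and the germ line. Of all genes, 17.8%, 18.2% and 32.0% were called in these comparisons. Prdm14 fell by 2.95, Tbx3 fell by 2.56 and Klf4 fell by 2.45 in the dual depletion. In Pds5a-/- mESCs 12 of 14 fell after siPds5b, 9 after siStag2 and 1 after siStag1, and the median log2 fold changes were −1.12, −0.61 and −0.37. Summed over the list, WT siGLO libraries had 55560 to 58840 normalized counts, Pds5a-/- siGLO 37680 to 38600, Pds5b-/- siGLO 31230 to 33150 and the dual depletion 18560 to 19780. The condition with the lowest naive sum, the dual depletion, had the highest mean of Pou3f1 but not the lowest mean of Fgf5, which was in Pds5b-/- siGLO mESCs.

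**Figure D3:**
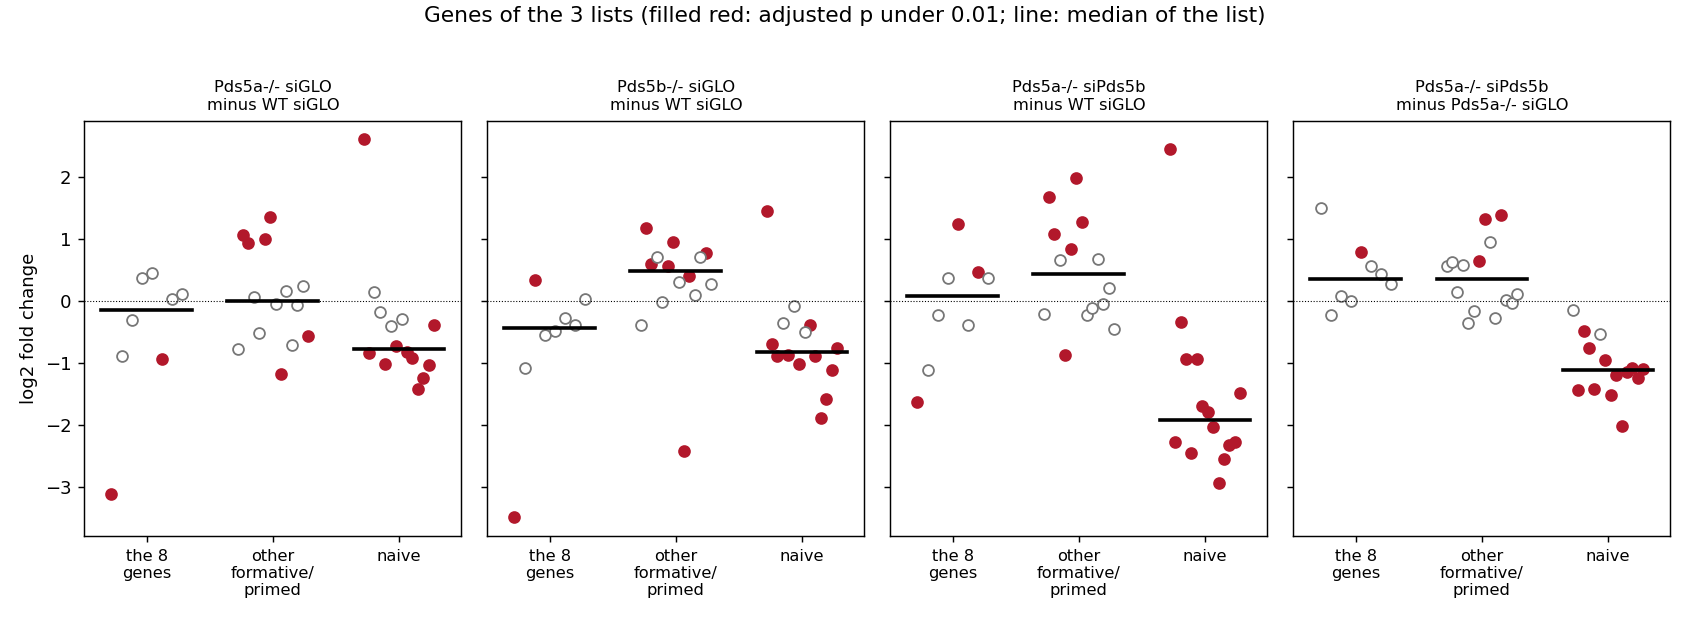
Log2 fold changes of the 8 genes, of the 14 other formative and primed genes and of the 14 naive genes in 4 of the comparisons, 1 point a gene with a line at each list's median. The naive median is lowest in the dual depletion against WT (−1.92), where the median of the 8 genes is 0.074.

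Of 12 regulators of the exit from naive pluripotency, 2 were higher in each single knockout, a share near the 17.8% and 18.2% of all genes called. In the dual depletion 1 was higher and 1 lower, where 32.0% of all genes were called. Tfe3 rose by 0.42 and 0.37 in the knockouts and by 0.42 in the dual depletion, Tcf7l1 by 0.52 in Pds5a-/- mESCs and Foxp1 by 0.84 in Pds5b-/- mESCs. Zfp281 fell by 0.36 in the dual depletion.

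Paralogs of the 8 genes, 15 of 18 with enough counts to test, were read in the same way. In Pds5a-/- mESCs 0 were higher and 4 lower, in Pds5b-/- mESCs 0 and 2, and in the dual depletion 4 and 6 against WT. The shares of all genes called there were 17.8%, 18.2% and 32.0%. Fgf8, like Fgf5 a fibroblast growth factor of the early embryo, fell by 4.55 and 4.59 in the knockouts and by 5.58 in the dual depletion. Its WT siGLO libraries had 167.6, 921.5 and 882.3 normalized counts, with replicate 1 far below the others. Fgf17, a close relative of Fgf8, averaged 699.6 in WT siGLO, 466.4 in Pds5a-/- siGLO, 903.6 in Pds5b-/- siGLO and 117.4 in dual-depleted mESCs. Otx1 averaged 6.669 in WT and 43.84 normalized counts in the dual depletion, where it was called higher (adjusted p = 9.82e-06). Sall3 fell by 1.01 in Pds5a-/- mESCs and was 1.59 higher in Pds5b-/- than in Pds5a-/- mESCs. Lin28a, the paralog of Lin28b, rose by 0.40 in the dual depletion.

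Among 12 other genes of the LIN28 and let-7 pathway, 0 were higher and 2 lower in Pds5a-/- mESCs, 4 higher and 1 lower in Pds5b-/- mESCs, and 3 higher and 2 lower in the dual depletion against WT. The shares of all genes called there were 17.8%, 18.2% and 32.0%. Igf2bp2, an mRNA-binding protein and let-7 target, fell by 0.69, 0.59 and 0.82 in the 3 comparisons. Hmga2, a chromatin protein and let-7 target, fell by 0.90 in Pds5a-/- mESCs. Igf2bp1 rose by 0.48 in Pds5b-/- mESCs and by 0.47 in the dual depletion, and Trim71 by 0.39 and 0.37. Zcchc11, a uridylyltransferase that acts with LIN28, rose by 0.46 in Pds5b-/- mESCs and was 0.63 higher there than in Pds5a-/- mESCs, as Lin28b was. Poly-A libraries do not measure mature let-7.

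Genes of other embryonic and extraembryonic cell types were read to see which other cells the libraries could hold. Of 9 primitive streak genes tested, 0 were higher in either knockout or the dual depletion, and 4, 2 and 3 were lower against WT, with Eomes falling by 1.25, 0.99 and 1.34. Of 10 neuroectoderm genes tested, 1 was higher and 2 lower in Pds5a-/-, 6 higher and 0 lower in Pds5b-/- and 2 higher and 3 lower in dual-depleted mESCs. Sox1, an early neural factor, fell by 1.28 and by 1.47 in Pds5a-/- and dual-depleted mESCs and rose by 1.43 in Pds5b-/- mESCs. Pax6 rose by 2.19 in Pds5b-/- mESCs. Of 7 trophoblast genes tested, 6 were higher in Pds5a-/- mESCs, among them Hand1 (3.50) and Cdx2 (1.90), 2 were higher and 2 lower in Pds5b-/- mESCs, and 5 were higher and 1 lower in the dual depletion. Of 8 primitive endoderm genes 1, Col4a1, was higher in Pds5b-/- mESCs (1.45), and of 7 neural crest genes tested 2, Snai2 (3.14) and Sox9 (1.80), were higher in the dual depletion. Against WT, 17.8% of all genes were called in Pds5a-/- mESCs, 18.2% in Pds5b-/- mESCs and 32.0% in the dual depletion. The part of these markers in the values of the 8 genes was not tested.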

How the data were processed

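Gene-level read counts were deposited by the authors for each of 21 poly-A RNA-seq libraries; they state STAR alignment to mm10, and the counting tool, gene annotation and strand setting are not given in the sources used here. The deposited counts were used as raw counts. Samples were grouped by the labels' genotype and siRNA.

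All 7 conditions were fitted in 1 model with edgeR 4.0.16 in R 4.3.3 (filterByExpr, TMM normalization, robust quasi-likelihood fit). A gene was called at a Benjamini-Hochberg adjusted p under 0.01 over the 14963 genes tested, in each of 11 comparisons. TMM factors ran from 0.975 to 1.02. An SE is the log2 fold change over the square root of its F statistic. The fit was tested on simulated data with 200 changed genes. The labels call the libraries replicates without saying how separate the cultures were, so p-values measure only the spread between these libraries. No 2 replicates held identical counts.

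The 8 genes and all gene lists were chosen with earlier results of these data known, and no p-value was adjusted over a list alone. Text names all 8 genes, the targeted genes, up to 4 called genes with the largest fold change per list and comparison, detected paralogs, called genes within 500 kb and the 3 most similar genes. T, the WT levels of Nanog, Esrrb and Zfp42, and Dnmt3b in the single knockouts fall outside this rule and were named after their values were seen. Tut4 and Tut7 carry older symbols in the files. Not tested for low counts were Pou3f4, Foxd4, Zic4, Hes5, Six3, Pax7, Mesp1 and Elf5.

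Same-numbered libraries deviated together (every correlation over 0.1) in the 4 comparisons of an siRNA with siGLO within 1 genotype, where the correlations ran from 0.135 to 0.688, so the replicate block was read as a pairing there and not elsewhere. Alternatives were DESeq2 1.42.0, RLE factors, library size only, no filter, at least 10 counts in every library, only the conditions compared, other thresholds, the replicate block and leaving out each library. Positions come from GENCODE M21 and promoter sequences from RefSeq, both on GRCm38. Similarity used log2 CPM with a prior count of 2.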

Additional observations from a re-analysis of the deposited data

Results flagged for a closer look

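Otx2, Pou3f1 and Lin28b had means on opposite sides of WT siGLO in the single knockouts. The direct contrast of Pds5b-/- with Pds5a-/- siGLO mESCs was called for each of them by edgeR's quasi-likelihood test. The log2 difference was −0.93 for Otx2, −0.95 for Pou3f1 and 0.64 for Lin28b. With 1 library left out, the Otx2 call held in 3 of 6 fits, and those of Pou3f1 and Lin28b in 6 of 6. The Otx2 libraries of Pds5a-/- mESCs overlapped WT, and their log2 difference of 0.38 ran from 0.10 to 0.53 with a library left out. Of the 6 underlying differences from WT, only the rise of Lin28b in Pds5b-/- mESCs passed the threshold in edgeR's fit of all conditions. DESeq2 also called the fall of Lin28b in Pds5a-/- mESCs (adjusted p = 0.00892). Each knockout was a single clone, so genotype and clone cannot be told apart.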

How the results depend on the processing

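Of the 88 log2 fold changes of the 8 genes, 59 were at least as large as their SE. None of these 59 changed sign in any alternative, 35 kept the same call throughout and 24 gained or lost a call in at least 1. Of the 29 smaller than their SE, 19 changed sign in at least 1 alternative, as a value near 0 can. Of the 11 calls, 5 held in every alternative that kept the threshold: Fgf5 in both knockouts, Pou3f1 in the dual depletion against WT, and Pou3f1 and Lin28b between the knockouts. The cause of the other changes was not tested.

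The count of called genes in Pds5a-/- against WT was 1 in a fit of these conditions alone (12.7% of all genes). It was 1 when the log2 difference also had to reach 1 (6.40% of all genes), and 3 in DESeq2 (19.5%), which added Lin28b. With the replicate block it was 4 (21.2%), which added Foxd3 (−0.96, adjusted p = 0.00073) and Lin28b (−0.31, 0.00922). In Pds5b-/- against WT it was 4 in a fit of these conditions alone (18.1%), which added Otx2 and Foxd3, and 6 at an adjusted p under 0.05 (31.3% of all genes). It was 1 when the log2 difference had to reach 1 (4.89%), and 1 to 2 with a library left out (11.2% to 17.2%). Foxd3 was called there with the block (−1.13, 0.000188) and in the dual depletion (−1.21, 4.91e-05). In the dual depletion against WT the count was 6 at 0.05 (44.7%) and 1 to 3 with a library left out (25.3% to 29.7%). For siPds5b in Pds5a-/- mESCs it was 2 in DESeq2 (9.25%), 0 in a fit of these conditions alone (3.66%) and 3 at 0.05 (15.7%). It was 0 when the log2 difference had to reach 1 (2.52%), and 0 to 2 with a library left out (4.5% to 6.2%). For siStag2 the count was 1 at 0.05 (7.99%), and between the knockouts 5 at 0.05 (32.4%) and 0 when the log2 difference had to reach 1 (3.88%). For the interaction it was 0 to 1 with a library left out (0.80% to 1.53%). In the comparisons of genotypes not every correlation of same-numbered libraries was over 0.1, so the block was not read as a pairing there. The correlations ran from 0.0613 to 0.323 for Pds5a-/- and from 0.0887 to 0.302 for Pds5b-/- against WT siGLO. They ran from 0.0392 to 0.401 between the knockouts and from −0.0283 to 0.226 for the dual depletion against WT. Whether the replicate numbers mark a shared batch was not tested. The block changed no other call of the paired comparisons, and moved the percentage of all genes called to 1.85 between siStag2 and siStag1, 5.96 between siStag2 and siPds5b and 2.6 for the interaction. In the pairing comparisons it was 0.0201, 0.321 and 4.52, as given above, and 10.5 for siPds5b in Pds5a-/- mESCs (7.59 without the block).

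Log2 differences that changed sign with another setting were those of Zic5 for siPds5b in WT (−0.0083 by library size, −0.0016 with at least 10 counts), of Otx2 for siPds5b in Pds5a-/- (0.0020 in DESeq2, 0.0044 with RLE factors, 0.038 by library size, 0.010 with at least 10 counts, 0.00039 with these conditions alone, 0.00036 with the block) and of Foxd3 in the interaction (0.00053 with RLE factors, 0.042 by library size, 0.010 with at least 10 counts). With a library left out, Zic2 ran from −0.11 to 0.10 and Zic5 from −0.067 to 0.25 in Pds5a-/-, and Zic5 from −0.055 to 0.19 in Pds5b-/- against WT. For siPds5b in WT, Otx2 ran from −0.25 to 0.10, Pou3f1 from −0.19 to 0.082, Zic5 from −0.091 to 0.15 and Lin28b from −0.075 to 0.069. For siPds5b in Pds5a-/-, Otx2 ran from −0.16 to 0.27 and Foxd3 from −0.70 to 0.10. Foxd3 ran from −0.045 to 0.57 for siStag1, from −0.48 to 0.069 for siStag2, from −0.44 to 0.16 between the knockouts, from −0.25 to 0.44 between siStag2 and siPds5b and from −0.48 to 0.33 in the interaction. Zic5 ran from −0.16 to 0.11 between the knockouts and from −0.17 to 0.095 between siStag2 and siPds5b. Between siStag2 and siStag1, Fgf5 ran from −0.15 to 0.29 and Lin28b from −0.11 to 0.0066, and Otx2 ran from −0.10 to 0.38 in the interaction. With 3 libraries a condition, differences of the size of these ranges could not be resolved.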
